A study of Mus musculus with 24 samples.

Results

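The transcripts described here encode 9 enzymes, most of which break down amino acids in the liver. They were chosen by name as Tdo2, Kmo and Haao of tryptophan catabolism, Tat, Hpd and Hgd of tyrosine catabolism, Agxt and Sds of glyoxylate and serine metabolism, and Agxt2l1, now named Etnppl, whose enzyme splits phosphoethanolamine. A probe was taken where the gene name in the array files equalled one of these names. This gave 10 of the 41174 probes on the array, for 8 of the 9 genes, with 2 probes each for Tdo2 and Agxt2l1. No probe carries the name Haao, and a probe described in the files as a predicted Haao transcript is given apart and was not counted. Where a gene had 2 probes, the brighter one on average over the arrays stood for the gene.

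The liver is the main site at which amino acids in excess of need are degraded, and several of these enzymes are found almost entirely in hepatocytes. Tdo2 and Tat catalyse the committed steps for tryptophan and tyrosine, and both genes are textbook targets of glucocorticoids. Sds, which turns serine into pyruvate for gluconeogenesis, is known for large swings in its mRNA with fasting, feeding and dietary protein.

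Gene expression was measured in the whole colon and the liver of 12 female C57BL/6 mice aged 12 weeks, whose mothers ate the HF-low diet from 7 days before mating until weaning at about 28 days. HF-low is a high-fat diet in which folate was 0.4 mg/kg and selenium 0.1 mg/kg. After weaning, 6 mice stayed on HF-low (HF-low-low) and 6 were given a high-fat diet in which folate was raised to 1.8 mg/kg and selenium to 0.6 mg/kg (HF-low-suf), so that every mouse had a low-folate, low-selenium start and a high-fat diet throughout. Each mouse gave 1 colon and 1 liver array, and per the study's methods the animals were fasted and re-fed before the tissues were taken. Each of the 24 arrays set the RNA of 1 mouse (Cy3) against a common pool of colon and liver RNA (Cy5), and a value is the log2 ratio of Cy3 to Cy5 after normalization. Ratios were compared between arrays for the same probe and not between probes.

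The labelled tissues matched their markers. The mean log2 ratio of the 5 measured hepatocyte markers was 1.08 to 1.82 on the 12 liver arrays and -4.53 to -3.87 on the 12 colon arrays, and that of 7 colon epithelium markers was 0.62 to 1.27 in colon and -4.56 to -2.97 in liver. Even so, 4 of the 5 hepatocyte markers were well above background on all 6 arrays of each colon group. The same held for 4 of the 7 colon epithelium markers in each liver group, so this mark alone did not separate the tissues. Cy3 signals were 3.76 to 7.10 times the local background in the median of an array, and 26.1% to 71.9% of the probe spots on an array were well above background. Liver HF-low-suf replicate 4 and colon HF-low-suf replicate 5 had a bright reference channel (12.4 and 17.6 times the background), and 8.75% of the spots were flagged on that liver array. In liver HF-low-suf replicate 2 the mean of 7 skeletal muscle markers was -2.95, the highest of the livers, and in liver HF-low-suf replicate 1 the mean of 6 adipose markers was 2.58, the highest of the livers. The diet differences were also computed without each array in turn, the tissue differences without the 2 arrays with a bright reference channel and without the liver with muscle transcripts, and the correlations between enzymes without liver HF-low-suf replicates 2 and 4. No call of a main probe or of a pair changed under these. Liver HF-low-suf replicate 1, with the adipose transcripts, was left out of the diet differences but not of the tissue differences. The correlations were not rerun without it alone.

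The 60-base probes show which stretch of each transcript was read, and they are printed for genes whose results rest on the probe. Both Tdo2 probes span more genomic bases than their own length in the positions of the array files (build mm7, minus strand), chr3:82068883-82071893 for the main probe and chr3:82073120-82074397 for probe 2. Their bases, printed in lower case with no part singled out, were as follows.
Tdo2: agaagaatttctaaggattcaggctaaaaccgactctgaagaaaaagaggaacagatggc
Tdo2 probe 2: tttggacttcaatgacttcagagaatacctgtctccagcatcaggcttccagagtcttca
The Hpd probe also spans more genomic bases than its length (chr5:122402761-122404883, minus strand), and the Sds probe lies within 60 bases on the plus strand at chr5:119717082-119717141. Sds is printed because it varied most between the livers of a diet group.
Hpd: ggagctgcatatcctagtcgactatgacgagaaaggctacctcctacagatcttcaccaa
Sds: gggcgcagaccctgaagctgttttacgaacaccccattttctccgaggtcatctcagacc
The Agxt2l1 probes lie on the plus strand at chr3:130472087-130472146 (main probe) and chr3:130458018-130458077 (probe 2), and their signals differed, so the first 30 bases of each are given. The main probe is listed under a RefSeq mRNA and probe 2 under a pituitary cDNA clone, and in probe 2 each of the 3 forward reading frames holds a stop codon.
Agxt2l1: tctcctttggagtatgagcctgttctttgg
Agxt2l1 probe 2: tctagctatcatttctagagaattctagac

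The first question was how much of each transcript the liver held against the colon of the same mice. All 8 measured enzymes were higher in liver, by log2 differences of 3.39 to 7.32, and for each of the 8 main probes every one of the 12 livers lay above every one of the 12 colons. The call (limma, Benjamini-Hochberg adjusted P below 0.05) was made for 8 of 8 main probes, where it was made in this direction for 19.4% of all probes (19% in the other direction) and for 45.1% of the 9763 probes well above background on all 12 livers. Complete separation of the tissues was seen for 5.83% of all probes. The median difference over the 8 genes was 5.25, against 0.0185 over all probes. In whole tissue, fewer cells of a type and less RNA per cell cannot be told apart. The exact sign-flip permutation test over the 12 mice gave P = 0.000488 for each of the 8, the smallest value that it can give.

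**Figure D1:**
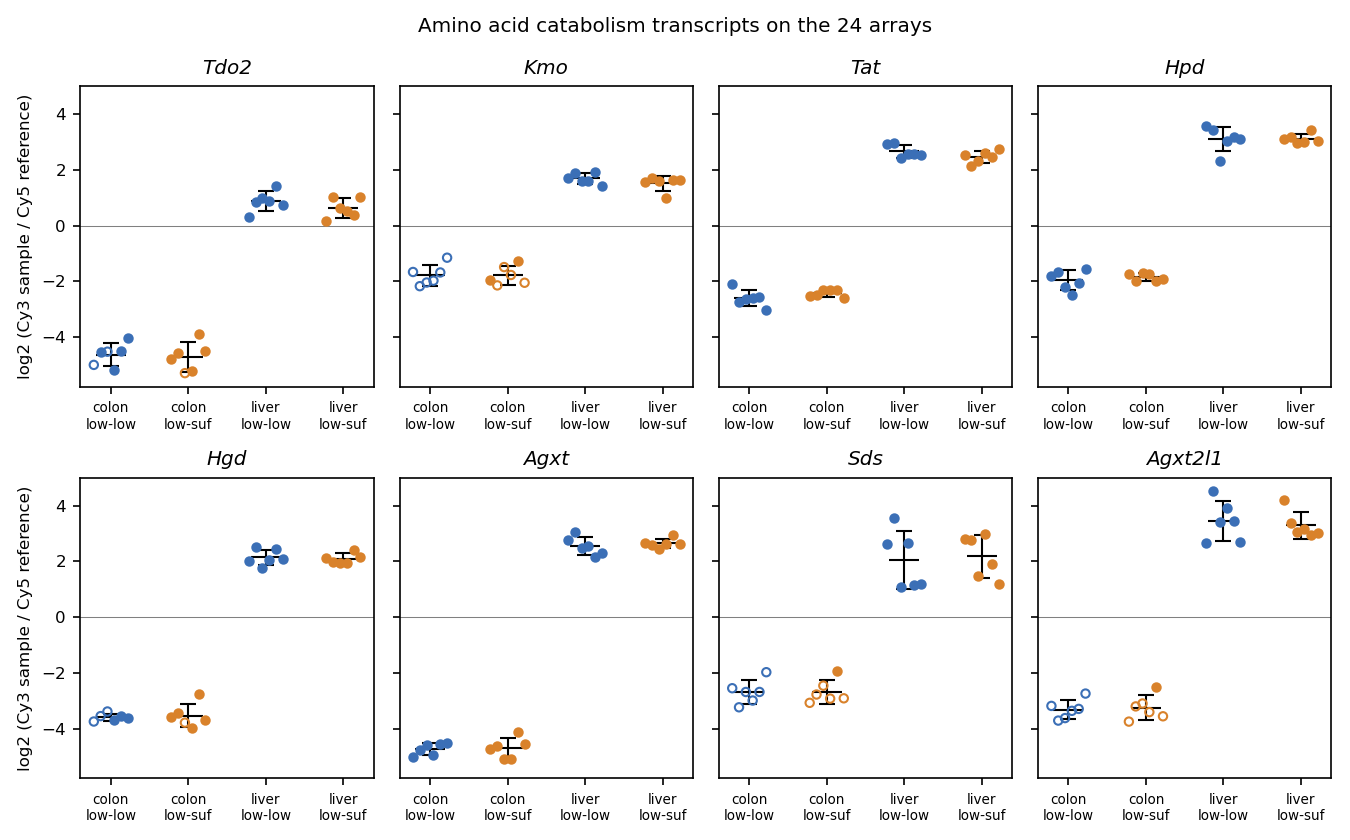
Log2 ratio of sample (Cy3) to reference (Cy5) of the main probe of each of 8 genes, for 6 mice in each of 4 groups of tissue and diet, with the group mean and SD in black. Filled points were well above background and open points were not. For every gene the 12 liver points lie above the 12 colon points, the diet groups overlap within each tissue, and Sds and Agxt2l1 show the widest scatter in liver.

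Tryptophan catabolism was described by Tdo2 and Kmo. Tdo2, which opens the ring of tryptophan, had log2 ratios of 0.32 (lowest), 0.88 (median) and 1.42 (highest) in the HF-low-low livers and 0.16, 0.59 and 1.03 in the HF-low-suf livers. In colon its values were -5.19, -4.54 and -4.03 (HF-low-low) and -5.30, -4.69 and -3.88 (HF-low-suf). The lowest liver thus stood far above the highest colon, and 9 of the 12 colon spots were well above background. The difference between tissues was 5.42 (standard error, SE 0.15), or 42.9-fold, with an adjusted P of 3.55e-21 in limma. Probe 2 of Tdo2 gave 4.96 (SE 0.13), and the deviations of the 2 probes from their diet means followed each other over the 12 livers (Pearson r 0.960, permutation P = 3.0e-05, adjusted P = 6.0e-05; Spearman rho 0.930, permutation P = 5.0e-05) and over the 12 colons (r 0.912, permutation P = 2.0e-05; rho 0.965). Without the 2 livers farthest from the median, r was 0.932, and in liver it was 0.963 and 0.997 within the 2 scan dates. In colon, where some spots were dim, r was 0.836 without the 2 farthest arrays and 0.866 and 0.951 within the scan dates.

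Kmo, which hydroxylates kynurenine, had liver values of 1.41, 1.67 and 1.93 in HF-low-low and 0.98, 1.63 and 1.69 in HF-low-suf. Its colon values were -2.17, -1.83 and -1.15 in HF-low-low and -2.14, -1.86 and -1.28 in HF-low-suf, but only 2 of the 12 colon spots were well above background, both in HF-low-suf. The measured difference was 3.39 (SE 0.12, adjusted P 5.13e-19 in limma). Kmo was dim on all 6 HF-low-low colons, as were Sds and Agxt2l1. No lower bound on the fold is given for these, because a bound set on Cy3 signals changed with the normalization and under 1 of them lay above the measured fold of another. The single probe described as a predicted Haao transcript (chr17:82125656-82125715, minus strand, mm7), the enzyme after Kmo and kynureninase in this route, was 3.54 higher in liver (SE 0.16, adjusted P 3.32e-16 in limma) and was well above background on 12 livers and 1 colon.

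Tyrosine catabolism was described by 3 consecutive activities. Tat, which takes the amino group from tyrosine, had liver values of 2.42, 2.58 and 2.98 in HF-low-low and 2.14, 2.49 and 2.74 in HF-low-suf. Its colon values were -3.01, -2.61 and -2.11 in HF-low-low and -2.61, -2.40 and -2.30 in HF-low-suf, with 12 of 12 spots well above background. The mRNA abundance of Tat was 33.9-fold higher in liver (log2 difference 5.08, SE 0.092, adjusted P 3.07e-25 in limma), with the smallest standard error of the 8.

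Hpd, which makes homogentisate, had values of 2.31, 3.16 and 3.59 in the HF-low-low livers and 2.97, 3.08 and 3.44 in the HF-low-suf livers. In colon they were -2.50, -1.93 and -1.55 and -1.99, -1.84 and -1.70, again with 12 of 12 spots well above background. The difference was 5.02 (SE 0.11, adjusted P 3.25e-23 in limma). It lay within 1 SE of that of Tat.

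Hgd, which opens the ring of homogentisate, had values of 1.76, 2.07 and 2.51 in the HF-low-low livers and 1.93, 2.05 and 2.43 in the HF-low-suf livers, with colon values of -3.75, -3.58 and -3.39 and of -3.97, -3.63 and -2.75. Of the 12 colon spots, 8 were well above background. The difference was 5.68 (SE 0.11), or 51.3-fold (adjusted P 5.30e-25 in limma).

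Agxt, the peroxisomal enzyme that passes the amino group of alanine to glyoxylate and so limits oxalate, had the largest difference among the 5 enzymes that were well above background on 8 or more colons. Its liver values were 2.16, 2.51 and 3.05 in HF-low-low and 2.44, 2.63 and 2.96 in HF-low-suf, and its colon values -5.01, -4.68 and -4.50 and -5.11, -4.68 and -4.12. The tissues differed by 7.32 (SE 0.11), or 160-fold (adjusted P 5.48e-27 in limma), the 34th largest difference toward liver among the 41174 probes. All 12 colon spots were well above background.

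Sds had liver values from 1.08 to 3.55 in HF-low-low (median 1.91) and from 1.18 to 2.97 in HF-low-suf (median 2.34). Its colon values were -3.24, -2.69 and -1.98 and -3.08, -2.85 and -1.93, with 1 of 12 spots well above background. The measured difference was 4.80 with the largest standard error of the 8 main probes (0.25, adjusted P 7.47e-15 in limma).

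Agxt2l1 was named for its likeness to an alanine-glyoxylate aminotransferase. Its main probe had liver values of 2.67, 3.43 and 4.52 in HF-low-low and 2.94, 3.10 and 4.22 in HF-low-suf, and colon values of -3.71, -3.33 and -2.74 and of -3.75, -3.31 and -2.49. The measured difference was 6.66 (SE 0.19, adjusted P 7.09e-21 in limma), with 1 of 12 colon spots well above background. Probe 2 gave another picture. It was well above background on 9 of 12 livers and on no colon, its tissues overlapped, and its measured difference was 1.46 (SE 0.25, adjusted P 2.46e-05 in limma; exact sign-flip permutation P = 0.00293). Over the 12 livers the deviations of the 2 probes had r 0.660 (permutation P = 0.0309, adjusted P = 0.0412 over 4 relations) and rho 0.580 (permutation P = 0.0619, adjusted P = 0.0826), with r 0.704 without the 2 farthest livers and 0.690 and 0.836 within the scan dates. Over the 12 colons, where probe 2 was dim, r was -0.06 (permutation P = 0.853).

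**Figure D2:**
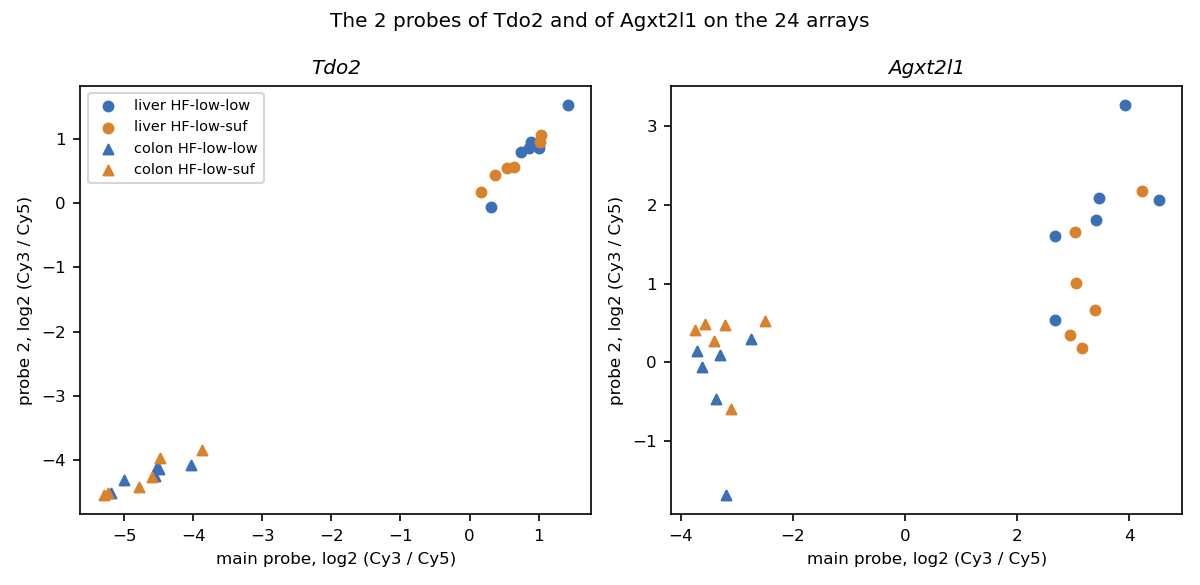
Log2 ratio of probe 2 against that of the main probe on each of the 24 arrays, for Tdo2 (left) and Agxt2l1 (right), with circles for liver, triangles for colon, blue for HF-low-low and orange for HF-low-suf. The Tdo2 probes separate the tissues alike, whereas probe 2 of Agxt2l1 lies between -1.69 and 0.52 in colon and between 0.18 and 3.27 in liver, so that its tissues overlap.

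Among the 5 enzymes that were well above background on 8 or more colons, Agxt (7.32, 95% interval 7.10 to 7.54) was followed by Hgd (5.68, 5.47 to 5.90), Tdo2 (5.42, 5.11 to 5.73), Tat (5.08, 4.89 to 5.27) and Hpd (5.02, 4.79 to 5.26). The intervals of Hgd and Tdo2 overlapped, as did those of Tdo2, Tat and Hpd, and with the Cy3 channel alone the last 3 took the opposite order. The measured values of Agxt2l1 (6.66, 6.27 to 7.05), Sds (4.80, 4.27 to 5.32) and Kmo (3.39, 3.15 to 3.63) rest on dim colon spots and were not ranked. With the signals processed by Feature Extraction, Agxt2l1 passed Agxt, and Sds (6.28) passed Tdo2 (6.14), Tat and Hpd. Kmo, Sds and Agxt2l1, dim on most colons, also moved most with the processing. All 8 stayed called under each of the 12 alternatives. The range over these was 2.74 (median centring) to 4.77 (Feature Extraction signals) for Kmo, 4.24 to 6.28 for Sds and 5.93 to 8.45 for Agxt2l1, the widest of the 8, and 4.90 to 5.40 for Tat. For Hgd, with 8 of 12 colon spots well above background, it was 5.35 (median centring) to 6.40 (Feature Extraction signals).

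The 8 enzymes were read beside 52 other genes of amino acid catabolism, of which 51 had a probe (2 found by RefSeq accession). Of these, 47 were higher in liver, 1 was lower and 3 were not called, with a median difference of 2.39, where 19.4% of all probes were called higher and 19% lower. Ftcd of histidine breakdown differed by 6.46 (SE 0.11), with 11 of 12 colon spots well above background. Aass of lysine breakdown differed by 7.51 (SE 0.13), but only 2 of its 12 colon spots were well above background. The median was 5.83 for histidine catabolism (4 of 4 called), where Amdhd1 was well above background on 1 colon and Uroc1 on 4, and 1.48 for the branched-chain group (14 of 15 called). Groups were not ranked, since some of their members were dim in colon. The lower one was Ido1, an enzyme that opens the tryptophan ring as Tdo2 does outside the liver (-1.34, SE 0.26, adjusted P 0.000126 in limma), with 12 of 12 colon spots and 1 of 12 liver spots well above background. Ido2, Tdh and Bcat2 were not called. Of the 47, Acmsd was well above background on no array and Bcat1 on no liver, so their differences of 0.70 and 0.84 rest on dim spots.

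**Figure D3:**
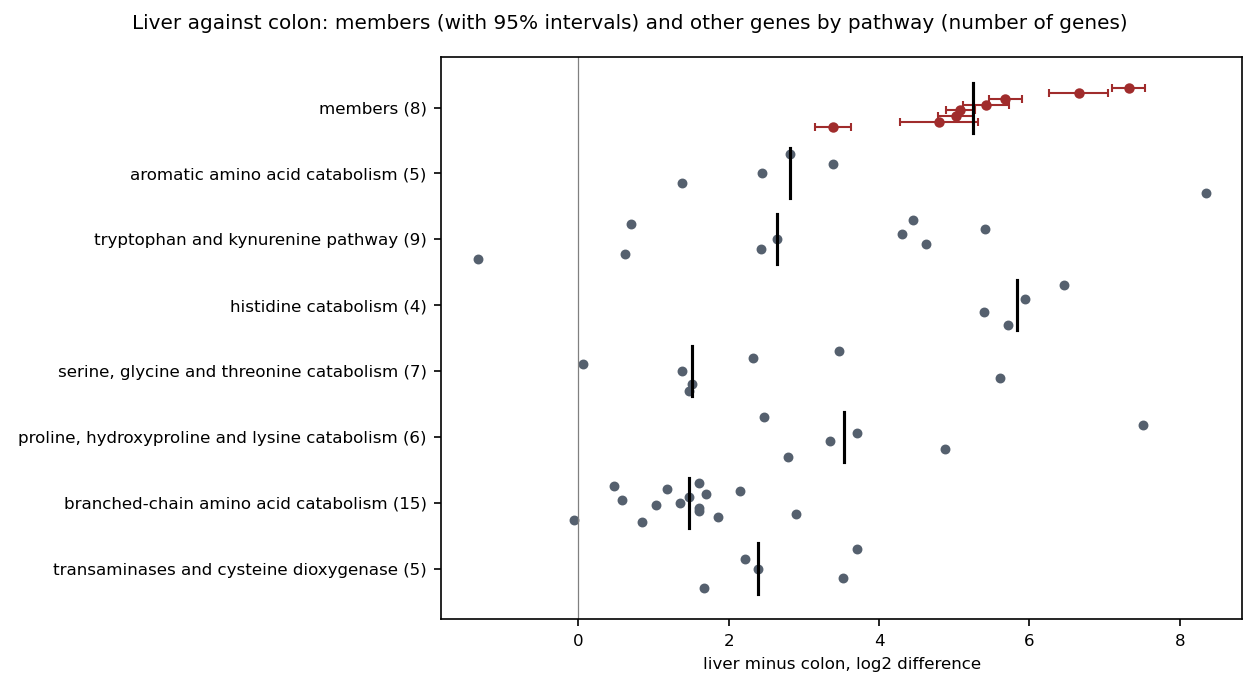
Liver minus colon log2 difference from limma for the 8 members (red, with 95% intervals) and for 51 other genes of amino acid catabolism in 7 pathway groups (grey), with the median of each group as a black bar. The members lie between 3.39 and 7.32, the histidine genes have a median of 5.83, some points rest on dim colon spots, and Ido1 is the point furthest below 0.

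The diets were compared next, to ask whether folate and selenium after weaning moved these transcripts. Differences are HF-low-suf minus HF-low-low with Cy3 as the sample, as the labels and the tissue markers give the dyes. The study uses the same order, with positive values where supplementation raised a gene. The signs found here were nonetheless the opposite of the study's, for the listed probes in liver and for nearly all of those in colon. The cause was not tested. None of the 8 main probes was called in liver at the threshold of the study's methods (unadjusted P below 0.01 and fold change above 1.5), where 0.117% of all probes were called (48), and none in colon, where 0.168% were (69). After Benjamini-Hochberg adjustment limma called 0 probes of the whole array in either tissue. At an unadjusted P below 0.05 none of the 8 passed in either tissue, where 2.13% of all probes passed in liver and 2.98% in colon. The diet groups overlapped for all 8 in both tissues, and 0.0121% of all probes in liver and 0.0777% in colon had groups that did not overlap.

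In liver the largest differences among the main probes were those of Tdo2 and Tat, both below 0. Tdo2 differed by -0.25 (SE 0.20, 95% interval -0.67 to 0.17, P = 0.229 in limma, exact permutation P = 0.249) and was lower in HF-low-suf on 4 of 6 slides. Tat differed by -0.21 (SE 0.14, interval -0.51 to 0.10, P = 0.172 in limma, exact permutation P = 0.141), also lower on 4 of 6 slides. Within the 2 scan dates Tat differed by -0.45 and 0.04, so that its direction was not the same on both. The diet groups overlapped for both genes.

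Kmo (-0.17, SE 0.15), Hpd (0.01, SE 0.19), Hgd (-0.05, SE 0.15) and Agxt (0.10, SE 0.16) had P values of 0.265 or more in liver (limma). Their 95% intervals were -0.49 to 0.15, -0.39 to 0.41, -0.37 to 0.28 and -0.23 to 0.44, all within a 1.5-fold change in either direction. The same could not be said for Sds (0.14, interval -0.83 to 1.12) or Agxt2l1 (-0.15, interval -0.81 to 0.52), whose spread between livers was wide.

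Probe 2 of Agxt2l1 stood apart from the main probe in liver. Its values were 0.53, 1.94 and 3.27 in HF-low-low and 0.18, 0.84 and 2.17 in HF-low-suf, well above background on 5 of 6 and 4 of 6 arrays. The groups overlapped, and the difference was -0.89 (SE 0.42, P = 0.0493, adjusted P 1.0 in limma; exact permutation P = 0.104), lower in HF-low-suf on 4 of 6 slides. Without HF-low-low replicate 6, the lowest of its group, it passed the threshold of the study's methods (-1.17, adjusted P 0.998 in limma, unadjusted 0.00808). The Cy3 channel alone passed it too (-0.63, unadjusted 0.00479), and adjusted P values over its alternatives were 0.944 to 1.0 in limma. The study lists this probe among its liver genes, so the value is not independent of that choice. There it is listed as raised by supplementation, the opposite sign to the value here, and the main fit here did not call it.

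In colon, Tat (0.18, SE 0.15, interval -0.13 to 0.50), Hpd (0.12, SE 0.16), Hgd (0.05, SE 0.18), Agxt (0.02, SE 0.17) and Tdo2 (-0.08, SE 0.24) had P values of 0.242 or more in limma. Kmo, Sds and Agxt2l1 were dim on all 6 HF-low-low colons, and no fold is given for them between the diets there. Probe 2 of Agxt2l1 was dim on all 12 colons. The difference of the diet effect between tissues was not called for any probe of the array (smallest adjusted P 0.348 in limma). Tat alone of the main probes fell below 0.05 unadjusted (liver minus colon effect -0.39, SE 0.18, adjusted P 0.773 in limma, unadjusted 0.0451), where 6.43% of all probes did. Probe 2 of Agxt2l1 gave -1.44 (SE 0.50, adjusted P 0.601 in limma, unadjusted 0.00859), with its colon spots dim.

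**Figure D4:**
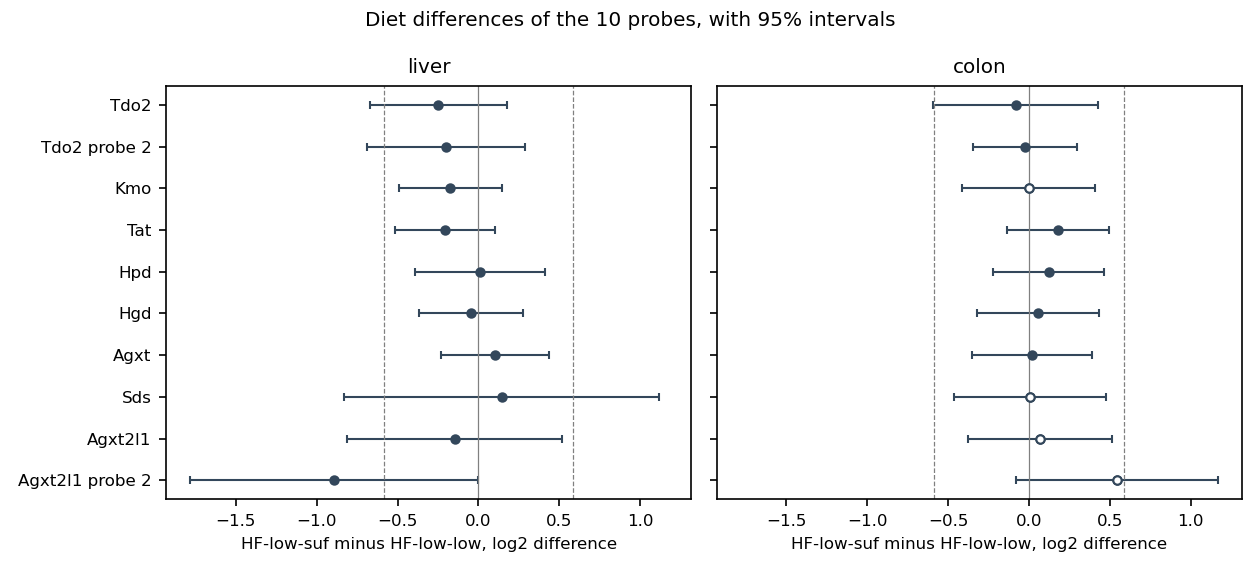
HF-low-suf minus HF-low-low log2 difference with 95% intervals from limma for the 10 probes in liver (left) and colon (right), with dashed lines at a 1.5-fold change. Open points mark probes that were not well above background on any array of at least 1 diet group. Each interval includes 0 except that of Agxt2l1 probe 2 in liver (-1.78 to -0.0033), and the liver intervals of Sds and Agxt2l1 are wide.

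Of the 51 other genes of amino acid catabolism, 0 were called between the diets in liver and 0 in colon at either threshold, and the medians were -0.03 and 6.1e-05. In liver 1 of the 51, the transaminase Gpt2, fell below 0.05 unadjusted (-0.29, SE 0.13, adjusted P 1.0 in limma, unadjusted 0.0406). A list of 14 transcripts that respond to glucocorticoids or fasting, 13 of them measured, was set beside the members because Tat, Tdo2 and Sds are textbook targets of the same signals. None of the 13 was called between the diets in liver or colon. Below 0.05 unadjusted were Tsc22d3 in liver (-0.56, SE 0.21, adjusted P 1.0 in limma, unadjusted 0.0163) and Sgk1 in colon (-0.47, SE 0.21, adjusted P 1.0 in limma, unadjusted 0.0429). Between tissues, 6 were higher in liver, among them G6pc (5.24, SE 0.095) and Pck1 (2.93, SE 0.31), and 4 were lower. Of all probes 19.4% were called higher in liver and 19% lower, and of those well above background on all 12 livers 45.1% were called higher. Igfbp1 was also among the 6 (6.23, SE 0.33), with 1 of 12 colon spots well above background.

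Although the diet groups did not separate, the values of single livers differed widely for 2 of the 8 genes. The within-diet SD of Sds over the livers was 0.915 in log2 units, above 98.8% of the 9763 probes that were well above background on all 12 livers, whose median SD was 0.260. That of Agxt2l1 was 0.610 (percentile 95.2). Sds was high in HF-low-low replicates 1, 2 and 4 (2.62, 3.55 and 2.65) and HF-low-suf replicates 1, 2 and 4 (2.82, 2.77 and 2.97). It was low in HF-low-low replicates 3, 5 and 6 (1.08, 1.16 and 1.20) and in HF-low-suf replicates 3, 5 and 6 (1.47, 1.90 and 1.18). The replicates with high and low values carried the same numbers in both diets, and a replicate number is a slide, so differences between slides and between mice cannot be told apart for Sds. The slides of the high values include both scan dates.

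The other 6 enzymes were steadier. The SD was 0.356 for Tdo2 (percentile 74.8), 0.334 for Hpd (70.5), 0.254 for Agxt (47.6), 0.240 for Hgd (42.2), 0.237 for Kmo (40.7) and 0.221 for Tat (34.9). Tat, which like Sds belongs to the hormone-responsive enzymes, thus lay below the median spread of the bright liver probes. Of the 13 transcripts of the glucocorticoid and fasting list, 10 were well above background on all 12 livers, with percentiles from 45.5 to 99.6 and 6 of them at 94.7 or more. Pck1, Igfbp1 and Mt2 had SDs of 1.29, 1.28 and 0.900 (percentiles 99.6, 99.6 and 98.8), whereas that of G6pc was 0.248 (percentile 45.5).

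**Figure D5:**
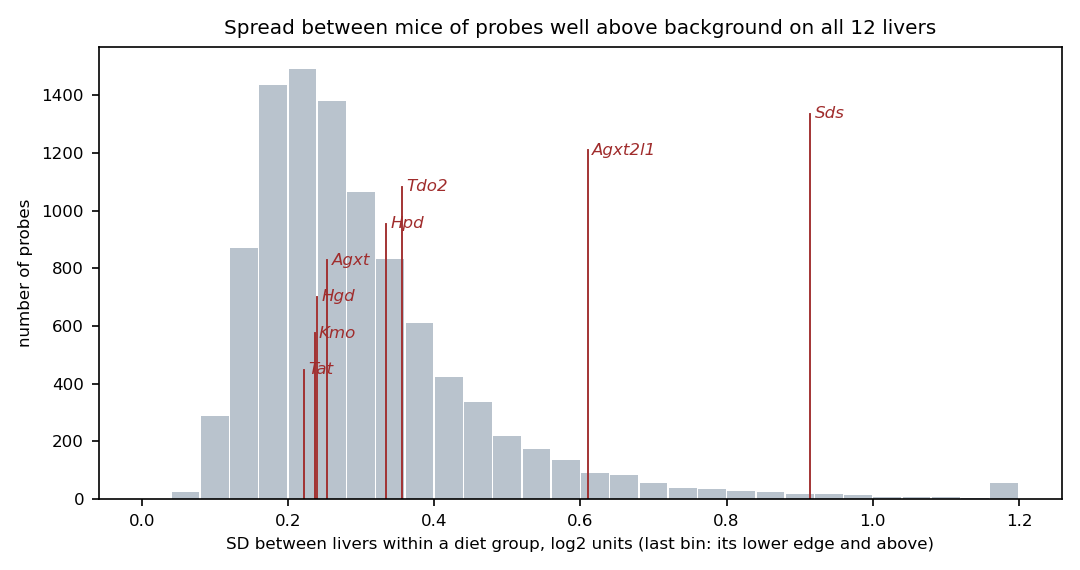
Number of probes (vertical axis) by the SD of the log2 ratio between livers within a diet group (horizontal axis), for the 9763 probes well above background on all 12 livers, with the 8 members as red lines whose heights only space the labels. Sds (0.915) and Agxt2l1 (0.610) lie in the upper tail and the other 6 between 0.221 and 0.356.

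How far the enzymes varied together over the 12 livers was described in pairs. Of the 28 pairs of the 8 genes, 22 had a positive Pearson r between their deviations from the diet means and 6 a negative one, with a median of 0.309 and a range of -0.47 to 0.653. With the Cy3 channel alone 17 were positive and 11 negative, with a median of 0.109, so the share of positive pairs depended on the channel. The highest was that of Agxt and Sds (r 0.653, permutation P = 0.0431; rho 0.643, permutation P = 0.036), which fell to 0.362 without the 2 farthest livers and was 0.967 and 0.414 within the scan dates. Next was that of Hpd and Hgd, consecutive steps of tyrosine breakdown (r 0.646, permutation P = 0.0469; rho 0.636, permutation P = 0.0368), with 0.842 without the 2 farthest livers and 0.650 and 0.855 within the scan dates. With slide means removed beside diet means, r was 0.774 for Agxt and Sds and 0.390 for Hpd and Hgd, and the permutations did not take the slide into account. Adjusted over the 28 pairs, no Pearson or Spearman P was below 0.05 (0.458 and 0.275 for both pairs). With 12 livers this does not show that the enzymes varied independently.

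As a description, the probes with the most similar pattern over the 12 livers were found among the 9763 bright ones by Pearson r of the deviations. For Sds they were Mif (r 0.925), Abcg5 (0.924) and Slc38a4 (0.919), an amino acid transporter of liver. For Agxt2l1 they were C1qb (0.939) and Colec11 (0.930), and for Tat Errfi1 (0.944) ahead of Klhl17 (0.848). Hpd was matched by Reep6 (0.957), the mitochondrial serine hydroxymethyltransferase Shmt2 (0.954) and the thiosulfate sulfurtransferase Tst (0.943). Tdo2 was matched by St3gal4 (0.925) and Ugt2a1 (0.907), Kmo by Dph1 (0.936) and Arsg (0.919), Hgd by Ercc3 (0.932), and Agxt by Nudt16l1 (0.860). These are the highest of 9763 values from 12 points that share slides and a reference pool.

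Promoters were searched because the 8 transcripts were high in liver together. RefSeq start regions (GRCm38.p6, 250 bases before to 50 after the start) were held for 8 of the 9 genes, with none for Sds. On both strands, the HNF1 motif and the motifs of HNF4 (CAAAGTCCA) and CREB (TGACG) had no match in any of the 8, where 0.00913%, 0.475% and 20.8% of all 32851 start regions of this length hold them. The longer forms TTGCGCAA of C/EBP, the full palindrome of the glucocorticoid receptor and TGACGTCA of CREB, each of which contains its shorter form, had none either (0.183%, 0.00913% and 1.79% of all). The short glucocorticoid receptor form ACANNNTGT was found in Tdo2 only (6.85% of all) and the C/EBP form TTGCNNAA in Hgd only (10.8% of all). Hgd held it at 2 places, at offsets -49 and 14 from the start and both on the minus strand. These are matches of letters in a short window and not sites shown to be bound. The 250 bases before the start are printed for these 2 genes with the match that lies in them in capitals, Tdo2 from the minus strand of chr3:81975729-81975978 and Hgd from the plus strand of chr16:37579903-37580152.
Tdo2 promoter: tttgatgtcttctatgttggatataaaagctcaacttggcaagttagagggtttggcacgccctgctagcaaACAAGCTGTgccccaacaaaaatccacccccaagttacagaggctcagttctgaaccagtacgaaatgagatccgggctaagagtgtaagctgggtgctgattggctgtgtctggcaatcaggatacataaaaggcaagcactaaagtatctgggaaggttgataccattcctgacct
Hgd promoter: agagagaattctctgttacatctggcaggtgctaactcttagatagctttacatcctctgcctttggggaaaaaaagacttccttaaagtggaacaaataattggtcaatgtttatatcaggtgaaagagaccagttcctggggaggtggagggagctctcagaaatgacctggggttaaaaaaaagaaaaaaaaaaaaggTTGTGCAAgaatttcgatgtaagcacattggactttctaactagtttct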

How the data were processed

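Samples were grouped by tissue and diet from the labels, with 6 arrays per group on 6 slides of 4 arrays scanned on 2 dates. The mouse is named in the labels and pairs colon with liver. The intensity values deposited by the authors are the mean spot signals and local background medians of Feature Extraction 9.5.3.1, with its spot flags, before any normalization between arrays. The study's methods name loess and limma, and a background correction is not given in the sources used here.

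Here the signals were corrected with normexp (offset 50) and loess-normalized within arrays, 1639 control spots of 45018 were left out with flagged outlier spots, and 43379 spots were averaged to 41174 probes (limma 3.58.1, R 4.3.3). Tissue and the difference of diet effects were fitted over 24 arrays in which arrays of 1 mouse were given a shared correlation of 0.158 (duplicateCorrelation, statmod 1.5.0). Deviations of the 2 arrays of a mouse correlated at -0.12 to 0.455. Diet was fitted on 12 arrays of a tissue. P values were adjusted over all probes by Benjamini-Hochberg. Exact permutation tests (two-sided) used 924 assignments for diet and 4096 sign flips for tissue, and correlations used 100000 resamples within diet groups (Python 3.11.15, scipy 1.17.1). A dim probe is one that Feature Extraction did not mark well above background in Cy3. The number of arrays limits the precision. On simulated data with independent noise and 200 of 41174 probes changed by 2 in log2, the liver diet fit recovered 95.5% after adjustment. It also called 16 unchanged probes. Smaller changes, such as those near the 1.5-fold threshold, were not simulated, so the power to find them is not known from this.

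Members and gene lists were chosen with earlier results of these data known. The genes named are the members, up to 3 probes most like each and, per list, up to 3 called genes in each direction by size; Ido2, Tdh, Bcat2, Acmsd, Amdhd1, Uroc1, Bcat1, Gpt2, Mt2, Tsc22d3, Sgk1 and Per1 were named after their values were seen. A gene that this rule would name is not reported here. Alternatives were the background correction, normalization, channel, flags, a filter on dim probes, blocks, scan dates and left-out arrays. Protein sequences were not used here.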

Additional observations from a re-analysis of the deposited data

Results flagged for a closer look

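Values far from the rest of their group were found in 3 of 44 groups of 6 arrays, where chance gives about 1 in 20, or 2.2. Kmo was 0.98 in liver HF-low-suf replicate 4, the array with 8.75% flagged spots and a bright reference channel, against 1.55 for the next lowest liver of the group. Agxt2l1 was 4.22 in liver HF-low-suf replicate 1, the liver with the highest adipose marker mean, against 3.39 for the next highest. Probe 2 of Agxt2l1 was -0.59 in colon HF-low-suf replicate 3 against 0.27 for the next lowest, with all of that group not well above background.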

How the results depend on the processing

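The tissue calls of the 8 genes held under all alternatives run, and no main probe was called between the diets under any. Aquantile leaves log ratios unchanged by construction. With the replicate number (slide) as a block, 0 of 8 were called in liver and 0 of 8 in colon, while calls over all probes went from 48 to 131 in liver and from 69 to 92 in colon. A number marks a slide in the files, and over bright probes the same-slide correlation was -0.16 to 0.768 over the livers, with 2 of 6 highest with their own number, so the block was kept as an alternative. Median centring gave 4521 probes higher and 9226 lower in liver against 7971 and 7812. Feature Extraction signals moved the median tissue difference of all probes to -0.19. Without single arrays the liver diet calls over all probes ranged widely, with 304 without HF-low-low replicate 3 and 9 without HF-low-low replicate 1. In colon they were 257 without HF-low-low replicate 5 and 23 without HF-low-low replicate 1.

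Uncalled diet differences were counted as changed in direction where they also moved by more than the SE. These were Tdo2 probe 2 in colon with median centring (0.14) and within scan date 2 (0.13), against -0.03, Agxt in liver within scan date 1 (-0.20) and Tat in liver within scan date 2 (0.036). The Cy3 channel alone called 1 transcript of the glucocorticoid and fasting list in liver, Tsc22d3 (-0.62, adjusted P 1.0 in limma, unadjusted 0.00714), and 1 of the 28 pairs, Kmo and Hgd (r 0.894, permutation P = 0.00059, adjusted P = 0.0165). Within scan date 1, 1 of that list was called in colon, Per1 (-1.10, adjusted P 1.0 in limma, unadjusted 0.00365). The cause was not tested.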

Other observations

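Sds and Agxt2l1 were set against the 13 measured transcripts of the glucocorticoid and fasting list over the 12 livers, a choice made after their spread was seen. The permutations were within diet groups and did not take the slide into account. Of the 26 relations, none had an adjusted P below 0.05. The highest was that of Sds with Pck1, the cytosolic PEP carboxykinase of gluconeogenesis (r 0.833, permutation P = 0.00319, adjusted P = 0.063; rho 0.839, permutation P = 0.00216, adjusted P = 0.0562). It was 0.806 without the 2 farthest livers and 0.872 and 0.870 within the scan dates. Sds with Igfbp1, another fasting-induced liver transcript, gave r 0.731 (permutation P = 0.00652, adjusted P = 0.063; rho 0.706, permutation P = 0.0161, adjusted P = 0.14), with 0.679 without the 2 farthest livers and 0.881 and 0.691 within the scan dates. The list did not follow Sds as a whole. Over its other transcripts r with Sds ran from -0.20 (Tsc22d3) to 0.722 (Per1), with 0.0051 for G6pc. Agxt2l1 with Tsc22d3 gave r -0.75 (permutation P = 0.00727, adjusted P = 0.063; rho -0.76, permutation P = 0.00448, adjusted P = 0.0582), with -0.65 without the 2 farthest livers and -0.96 and -0.48 within the scan dates. With slide means removed beside diet means, an alternative chosen after seeing the data, r was 0.830 for Sds with Pck1, 0.161 for Sds with Igfbp1 and -0.84 for Agxt2l1 with Tsc22d3.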
